A study of Mus musculus with 2 samples.

Results

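The nuclei described here were hepatocyte nuclei with the strongest periportal signal in 2 mouse livers, 856 of the 10615 nuclei deposited. They were chosen from their own counts of unique molecular identifiers (UMIs, 1 per captured transcript). A nucleus needed at least 2000 UMIs, at least 0.5% of its UMIs from Cps1, and no UMI from Glul, Slc1a2 or Lgr5, which are genes of hepatocytes at the central vein. The remaining nuclei were scored by the share of UMIs from Hal, Sds, Gls2, Hsd17b13, Cyp2f2 and Pck1, and the top 25% of each library were taken. These are called portal-high nuclei, and the bottom 25% of the same library, called portal-low nuclei, were set against them.

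Blood enters the liver lobule at the portal vein and leaves it at the central vein, so hepatocytes along this path meet falling oxygen and changing hormone and nutrient levels. Hepatocytes on the portal side are known for gluconeogenesis, urea formation from ammonia and breakdown of amino acids. Those near the central vein are known for glutamine synthesis, cytochrome P450 metabolism and bile acid synthesis, under Wnt signals from the central vein endothelium. Cox10 encodes the enzyme that makes heme O, the step before the heme A that complex IV of the respiratory chain (cytochrome c oxidase) needs.

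The study compared 1 wild-type and 1 Cox10-/- regenerating liver by single-nucleus RNA sequencing of 3' ends. All mice carried the floxed Cox10 allele, were injected once in the eye's venous sinus with AAV8-GFP or AAV8-Cre (adeno-associated virus, a serotype that mainly infects hepatocytes), and had 70% of the liver removed 4 weeks later. The labels do not say which virus each liver received, name no strain, sex or age, and give the time after surgery as 4 weeks in the sample record and 4 days in the protocol. Because the Cre was delivered by virus, a Cox10-/- liver can still hold hepatocytes without recombination, and its non-parenchymal cells are not the intended target.

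There were 5448 nuclei with 17703804 UMIs from the wild-type liver and 5167 nuclei with 14476400 UMIs from the Cox10-/- liver. The libraries shared 7 barcodes, none of them in a portal-high nucleus and 1 in a portal-low nucleus. In the wild-type library 4424 nuclei had 2000 UMIs or more, 3774 of these passed the Cps1 limit and 3044 also lacked the central vein genes, which gave 761 portal-high and 761 portal-low nuclei. In the Cox10-/- library the same steps left 3179, 766 and 377 nuclei, and 95 nuclei at each end. The exclusion of central vein genes removed 19.3% of wild-type hepatocyte nuclei (95% Clopper-Pearson interval 18.1% to 20.6%) and 50.8% of Cox10-/- hepatocyte nuclei (47.2% to 54.4%), mostly through Glul, which had a UMI in 15.5% and 43.6% of them. The 2 libraries were therefore cut differently before the score was taken. These shares are without thinning, and a limit of no UMI removes deeper nuclei more often. In the middle of the score, the nuclei that passed had a median of 3233 UMIs in wild-type and 4307 in Cox10-/-. The part of depth in the gap was not tested.

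There was 1 library per genotype, and nuclei of 1 animal are not replicates, so no test was run and no p-value is given. Counts were summed over the nuclei of a group and given as CPM, which scales each gene's sum to the group's total UMIs. Intervals at 95% cover counting error only, not the difference between animals or preparations. A gene was called higher or lower when its ratio was at least 1.5-fold with the whole interval beyond 1.2-fold, and only genes whose sums together reached 20 UMIs were tested in this way. Fewer nuclei of one kind and less RNA per nucleus cannot be told apart in such sums.

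Several properties of the nuclei moved with genotype and stand beside every comparison of the 2 livers. Portal-high nuclei had a median of 3085 UMIs in the wild-type library and 4842 in the Cox10-/- library. Portal-low nuclei had 3351 and 3518, so depth also differed along the score, in opposite directions in the 2 libraries. Mitochondrially encoded transcripts took a median of 11.4% of UMIs in wild-type and 3.25% in Cox10-/- portal-high nuclei. In portal-low nuclei they took 11.4% and 4.53%. At least 2 UMIs from markers of endothelial, stellate, myeloid, lymphoid or bile duct cells were found in 15.0% of wild-type and 66.3% of Cox10-/- portal-high nuclei. These shares are unthinned, and deeper nuclei reach 2 UMIs more often. In portal-low nuclei, where the median depths were closer, the shares were 22.1% and 65.3%. Scaled to total UMIs, endothelial markers summed to 38.9 and 64.8 CPM in portal-high nuclei, and stellate markers to 102 and 188 CPM. Bile duct markers summed to 48.7 and 209 CPM, mostly Pkhd1. Myeloid markers summed to 11.7 and 50.6 CPM, and lymphoid markers to 3.78 and 0 CPM. The part of depth was not tested. Nuclei of those other cell types, recognised by at least 5 UMIs of 1 class's markers and Cps1 below 0.5%, numbered 80 in one library (wild-type) and 2236 in the other (Cox10-/-). They serve below as a reference for transcripts that are shared with other cells or free in the suspension.

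Cox10 itself (chromosome 11, 63962627 to 64079468, minus strand, mm10) was not called between the genotypes. Portal-high nuclei held 110 Cox10 UMIs in the wild-type (41.6 CPM) and 26 in the Cox10-/- library (52.7 CPM), a ratio of 1.27 (0.793 to 1.96). Portal-low nuclei held 29.5 CPM in wild-type and 45.5 CPM in Cox10-/- nuclei. A 3' tag outside the deleted part would not report a deletion, and the part flanked by loxP sites is not given in the sources used here, so these counts check nothing about the labels.

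The genes of the rule give a picture of the portal-high nuclei, as a description only, since they chose the nuclei. The limit of the score lay at 0.551% of UMIs in the wild-type library, where the last nucleus inside had 0.551204% and the first outside 0.551111%. In the Cox10-/- library it lay at 0.656%, between 0.656124% and 0.652125%. The median score was 0.642% in wild-type and 0.727% in Cox10-/- portal-high nuclei. Pck1, the rate-limiting enzyme of gluconeogenesis, gave 43.1% of the score's UMIs in wild-type and 44.8% in Cox10-/- portal-high nuclei.

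**Figure D1:**
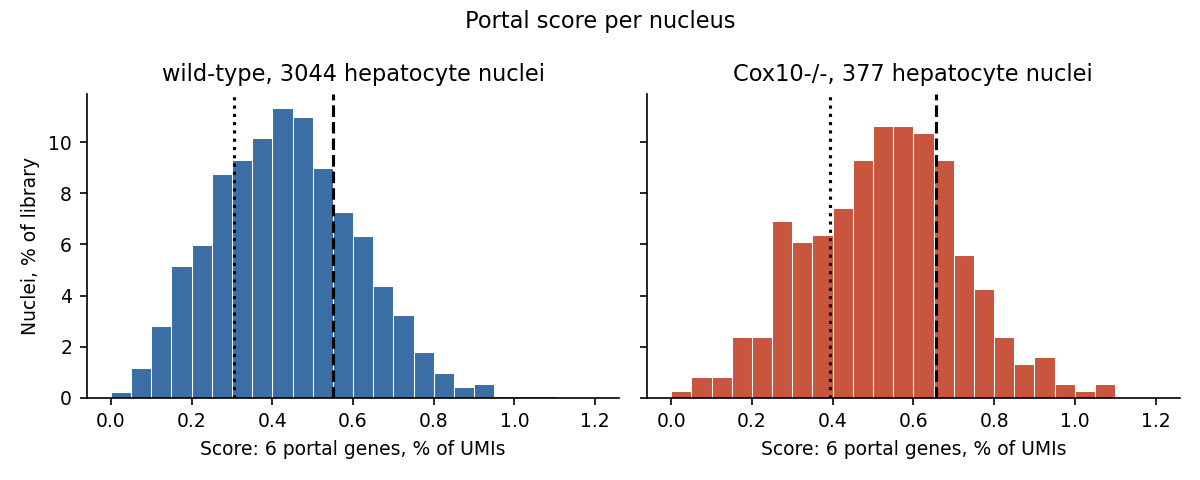
Distribution of the portal score (share of UMIs from the 6 portal genes, x axis, in percent) over hepatocyte nuclei that passed the other limits, as a percentage of those nuclei (y axis), with dotted and dashed lines at the limits of the bottom and top 25%. Both distributions have 1 broad peak and no gap at a limit, and the upper limit lies at 0.551% in wild-type and 0.656% in Cox10-/- nuclei.

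Sds, which breaks down serine, stood at 1234 CPM in wild-type portal-high nuclei and 1829 CPM in Cox10-/- portal-high nuclei, against 173 and 218 CPM in the portal-low nuclei. Hal, the first enzyme of histidine breakdown, stood at 898 and 658 CPM, against 172 and 137 CPM. Gls2, the liver glutaminase that frees ammonia for urea, stood at 539 and 462 CPM, against 204 and 119 CPM. The lipid droplet enzyme Hsd17b13 (706 and 849 CPM), the portal cytochrome Cyp2f2 (380 and 375 CPM) and Pck1 (2843 and 3392 CPM) were likewise above their portal-low levels in both libraries. Cps1, the entry enzyme of the urea cycle, was used as a floor and not in the score, and had 8682 and 9318 CPM in portal-high and 9440 and 10513 CPM in portal-low nuclei.

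The score genes often met in single nuclei, which the rule favours. After thinning every nucleus to 2000 UMIs, Sds had a UMI in 88.8% of wild-type (95.4% unthinned) and 97.9% of Cox10-/- portal-high nuclei (100% unthinned). The share was 25.2% and 33.7% in portal-low nuclei (35.1% and 46.3% unthinned), and 52.5% and 16.99% in the nuclei of other cell types, whose median depths were 2707 and 2769.5 UMIs. At least 4 of the 6 score genes had a UMI in 96.1% of wild-type and 100% of Cox10-/- portal-high nuclei, against 31.1% and 36.8% of portal-low nuclei, without thinning. Of 7 general hepatocyte markers all were measured in both libraries, with Alb at 13245 and 14001 CPM in portal-high nuclei.

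Portal-high nuclei were first set against portal-low nuclei of the same liver, which asks what else goes with the periportal genes. In both livers a share of the portal genes that the score did not use was higher in portal-high nuclei, and most genes of the central side were lower. These nuclei were sorted by other genes of the same cells, so the counts are a description. In the wild-type library 133 of 9982 genes were called higher, which is 1.33%, and 228 called lower, 2.28%. In the Cox10-/- library 94 of 5480 genes were called higher, 1.72%, and 132 called lower, 2.41%. The rule genes stand outside these counts.

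Of 20 other periportal genes, 8 were called higher and none lower in the wild-type nuclei, with a median log2 ratio of 0.37 beside 0.01 over all genes tested. Of the 18 measured in the Cox10-/- nuclei 5 were called higher and none lower, with a median of 0.35 beside 0.00. Those called in both were Etnppl, Hsd17b6, Mfsd2a and Uroc1. Etnppl, which degrades phosphoethanolamine, stood at 71.4 CPM in wild-type portal-low and 158 CPM in portal-high nuclei, a ratio of 2.21 (1.86 to 2.62), and at 266 and 745 CPM in the Cox10-/- nuclei, a ratio of 2.81 (2.25 to 3.52). Hsd17b6, a hydroxysteroid and retinol dehydrogenase, went from 99.1 to 276 CPM in the wild-type and from 73.4 to 243 CPM in the Cox10-/- nuclei. Uroc1, the enzyme after Hal in histidine breakdown, went from 234 to 392 CPM and from 235 to 407 CPM. Mfsd2a, a lysophospholipid transporter, went from 186 to 279 CPM and from 304 to 468 CPM.

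The cell adhesion gene Cdh1 (E-cadherin) was called higher in wild-type portal-high nuclei, at 25.3 against 10.7 CPM, and in the Cox10-/- nuclei its 48.6 against 32.9 CPM was not called, with 13 UMIs in the lower sum. Ctsc was also called higher in the wild-type nuclei, at 54.4 against 24.2 CPM, but its level in nuclei of other cell types was higher still, at 154 CPM. The other wild-type calls were Sdsl, a serine dehydratase relative at 31.4 against 12.1 CPM, and the sulfotransferase Sult5a1 at 54.8 against 18.5 CPM.

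Amino acid breakdown was represented in the zonal contrast by a few enzymes rather than by the whole list. Of 32 enzymes of amino acid catabolism outside the rule, 4 were called higher in wild-type portal-high nuclei (Amdhd1, Gldc, Sdsl and Uroc1) and none lower, with a median log2 ratio of -0.02. Of 30 measured in the Cox10-/- nuclei 5 were called higher (Ftcd, Gldc, Got1, Tdo2 and Uroc1) and none lower, with a median of 0.23. Gldc, the glycine decarboxylase, stood at 239 against 129 CPM in the wild-type, a ratio of 1.86 (1.63 to 2.12), and at 521 against 167 CPM in the Cox10-/- nuclei, a ratio of 3.12 (2.37 to 4.15). Histidine breakdown passes through Hal, Uroc1, Amdhd1 and Ftcd in turn, and all 3 enzymes outside the rule had zonal ratios above 1 in both livers. Amdhd1 was at 272 against 177 CPM in wild-type and 132 against 104 CPM in the Cox10-/- nuclei, and Ftcd at 422 against 284 CPM and 358 against 223 CPM.

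Of 10 enzymes and carriers of the urea cycle besides Cps1, none was called in wild-type nuclei (median log2 ratio -0.05), and of the 9 measured in Cox10-/- nuclei none was called either (median 0.21). Of those 9, 7 had ratios above 1, beside a median of 0.00 over all genes tested. Ass1, which joins citrulline and aspartate, stood at 1449 CPM in portal-high and 1580 CPM in portal-low wild-type nuclei, and at 2123 and 1829 CPM in Cox10-/- nuclei. Arg1, which releases urea, stood at 1035 and 870 CPM in wild-type nuclei, a ratio of 1.19 (1.13 to 1.26), and at 1329 and 1058 CPM in Cox10-/- nuclei, a ratio of 1.26 (1.11 to 1.42), so it was higher at the portal-high end by less than the rule for calls. Of gluconeogenesis genes beyond Pck1, 0 of 12 were called in wild-type nuclei, and 1 of 11 in Cox10-/- nuclei was called higher, the aspartate aminotransferase Got1, at 1746 against 959 CPM. G6pc, which releases glucose, had a zonal ratio of 1.22 (1.12 to 1.32) in the Cox10-/- nuclei, and its 900 CPM in wild-type portal-high nuclei lay beside 928 CPM in portal-low nuclei.

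**Figure D2:**
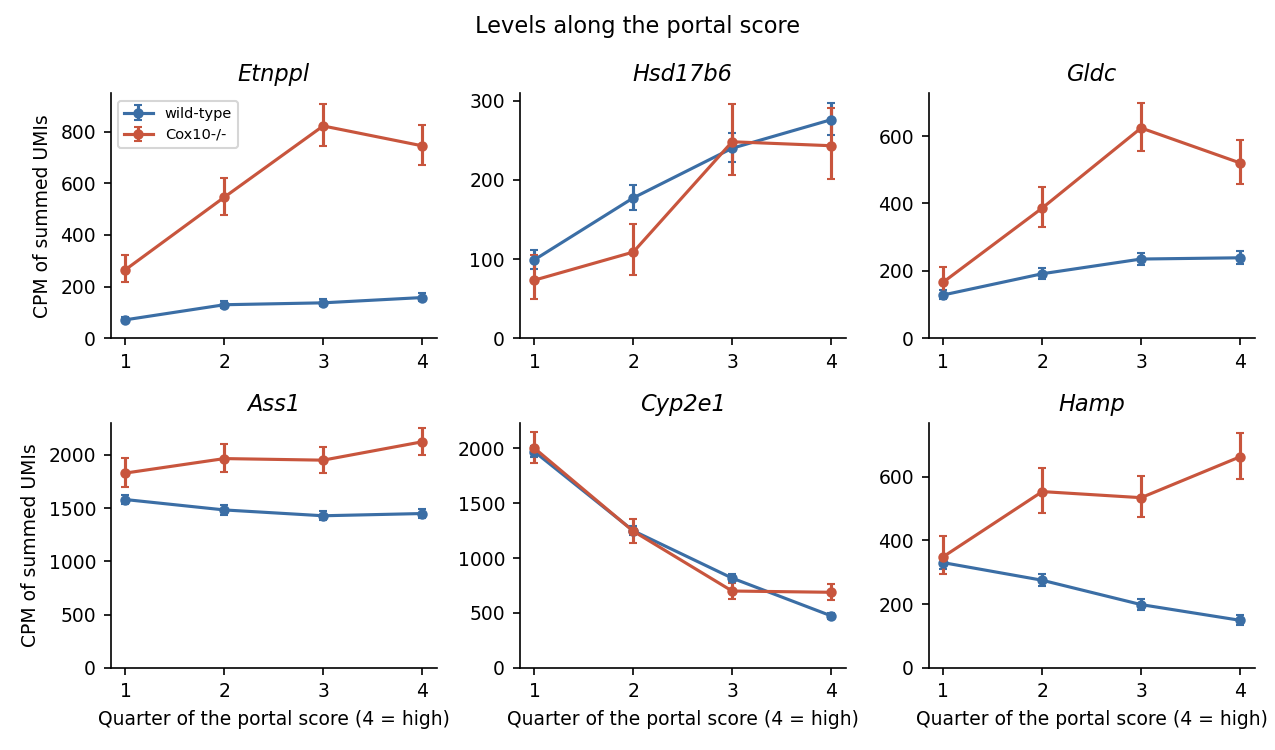
Levels of 6 genes (CPM of summed UMIs, y axis from 0) across the 4 equal parts of the portal score (x axis, 4 = portal-high) in wild-type and Cox10-/- nuclei, with 95% Poisson intervals for counting error. Etnppl, Hsd17b6 and Gldc are higher at the portal-high end in both libraries, Cyp2e1 is lower, Ass1 is nearly level, and Hamp runs from 330 to 149 CPM in the wild-type and from 349 to 662 CPM in the Cox10-/- nuclei.

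Most genes of the central side were called lower in portal-high nuclei. Of 23 such genes outside the rule, 19 were called lower in the wild-type, with a median log2 ratio of -1.41, and none higher. Of the 19 measured in the Cox10-/- nuclei 14 were called lower, with a median of -0.96, and none higher. Cyp2e1, the ethanol-oxidising cytochrome, stood at 1970 CPM in portal-low and 475 CPM in portal-high wild-type nuclei, a gap of 4.15-fold (3.90 to 4.42). In the Cox10-/- nuclei it stood at 2001 and 689 CPM, a gap of 2.91-fold (2.56 to 3.31), and the step between the 2 uppermost parts of the score was small there, from 700.1 to 689 CPM. Nuclei of other cell types held 528 and 772 CPM of Cyp2e1, so the portal-high level of both libraries lay below that of these reference nuclei.

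Cyp7a1, which sets the rate of bile acid formation, was 7.39-fold lower in wild-type portal-high nuclei (5.59 to 9.94), with 156 against 21.2 CPM, and 3.39-fold lower (1.36 to 9.55) in the Cox10-/- nuclei, with 19 against 7 UMIs. Oat, the ornithine aminotransferase of the central vein zone, went from 30.2 to 9.07 CPM in the wild-type and from 68.3 to 16.2 CPM in the Cox10-/- nuclei. Slco1b2, a bile salt and drug transporter, went from 1857 to 904 CPM and from 1379 to 638 CPM. The nuclear receptors Nr1i3 (CAR) and Ahr, which induce cytochromes, were both called lower in both livers. Nr1i3 went from 223 to 98.6 CPM in the wild-type and from 195 to 95.2 CPM in the Cox10-/- nuclei.

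Wnt target genes outside the rule were sparse. Of 4 measured in the wild-type nuclei, Notum, Rnf43 and Tbx3 were called lower, and of 2 measured in the Cox10-/- nuclei Znrf3 was. Rnf43, a brake on Wnt receptors, stood at 74.1 against 134 CPM in wild-type and 93.2 against 162 CPM in the Cox10-/- nuclei, where the ratio was not called. Tbx3, with 4 against 47 UMIs in the wild-type, had 0 against 3 UMIs in the Cox10-/- nuclei, too few to compare.

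By the ranking rule the highest zonal ratios shared by both livers, after Hsd17b6, Etnppl and Gldc, belonged to Grm8, Cryl1, Ncam2, Rasgef1b, Slc3a1, Slc25a51, Acly, Nnmt and Tle4. Grm8, a glutamate receptor of neurons, stood at 355 against 109 CPM in wild-type and 107 against 5.06 CPM in the Cox10-/- nuclei, the last from 2 UMIs. Ncam2, a neural adhesion molecule, stood at 456 against 203 CPM and 354 against 111 CPM. Slc3a1, a subunit of the cystine and dibasic amino acid transporter, stood at 39.7 against 13.9 CPM and 107 against 38.0 CPM. Slc25a51, the mitochondrial NAD carrier, stood at 394 against 239 CPM and 713 against 324 CPM. Acly, which makes cytosolic acetyl-CoA, stood at 229 against 136 CPM and 557 against 293 CPM, and Nnmt, which methylates nicotinamide, at 69.9 against 37.3 CPM and 290 against 132 CPM.

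The lowest zonal ratios shared by both livers included those of Prkg1, Lhpp, Esrrg, Cyp2e1, Aldh3a2, Airn, Tenm3, Tox, Ube2e2, Gulo and Cyp2a5. Lhpp, a histidine phosphatase, went from 56.5 CPM in portal-low to 5.67 CPM in portal-high wild-type nuclei and from 73.4 to 6.08 CPM in Cox10-/- nuclei. Esrrg, an orphan nuclear receptor, went from 103 to 4.53 CPM and from 45.5 to 4.05 CPM. Gulo, the last enzyme of vitamin C synthesis, went from 116 to 26.8 CPM and from 261 to 91.1 CPM. Tenm3, a teneurin adhesion receptor, went from 406 to 68.0 CPM and from 385 to 119 CPM. Airn overlaps Igf2r on the opposite strand and the strand setting of the count is not given in the sources used here, so its values are uncertain.

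Prkg1, a cGMP-dependent kinase, was far higher in the nuclei of other cell types. It stood at 1247 CPM in wild-type and 3312 CPM in Cox10-/- nuclei of other cell types, against at most 55.4 and 98.7 CPM in the hepatocyte nuclei.

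Endothelial and stellate markers were also lower at the portal-high end of both libraries. The sum of bile duct markers was lower there in the wild-type, and higher in the Cox10-/- library through Pkhd1. Endothelial markers summed to 38.9 CPM in portal-high and 140 CPM in portal-low wild-type nuclei, and to 64.8 and 167 CPM in the Cox10-/- nuclei, with 9 of 9, 9 of 9, 8 of 9 and 9 of 9 markers detected. Stellate markers summed to 102 and 164 CPM in wild-type and 188 and 448 CPM in the Cox10-/- nuclei. Bile duct markers summed to 48.7 and 82.1 CPM and to 209 and 144 CPM, with Pkhd1 as the largest member. In the Cox10-/- nuclei Pkhd1 stood at 168 against 81 CPM. Bicc1, at 16.2 against 32.9 CPM, and Spp1, at 18.2 against 25.3 CPM, went the other way. The defining bile duct genes Krt7, Epcam and Cftr were at 0 in all 4 groups. Myeloid markers summed to 11.7 and 24.5 CPM in the wild-type and to 50.6 CPM at both ends in the Cox10-/- library, and all 8 lymphoid markers were at 0 in its portal-high nuclei. The part of such transcripts in the zonal calls was not tested beyond the following. Without nuclei holding 2 or more UMIs of such markers, 143 genes in place of 228 were called lower in the wild-type, and 188 of the 228 kept a ratio below 1. In the Cox10-/- library, where 34 nuclei per end remained, 41 genes were called higher and 56 lower, and 13 of the original 94 and 22 of the 132 were still called, while 92 and 117 kept their side of 1.

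Most zonal differences had the same direction in the 2 livers. Of the 69 genes called higher in the wild-type and tested in the Cox10-/- library, 56 (81.2%) had a ratio above 1 there, against 50.5% of all 5462 genes tested in both. Of the 106 called lower in the wild-type, 95 (89.6%) had a ratio below 1, against 49.5%. Called higher in both were 26 genes, which is 37.7% of the wild-type and 28.0% of the Cox10-/- calls that were tested in the other library. Called lower in both were 58 genes, 54.7% and 46.0%.

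**Figure D3:**
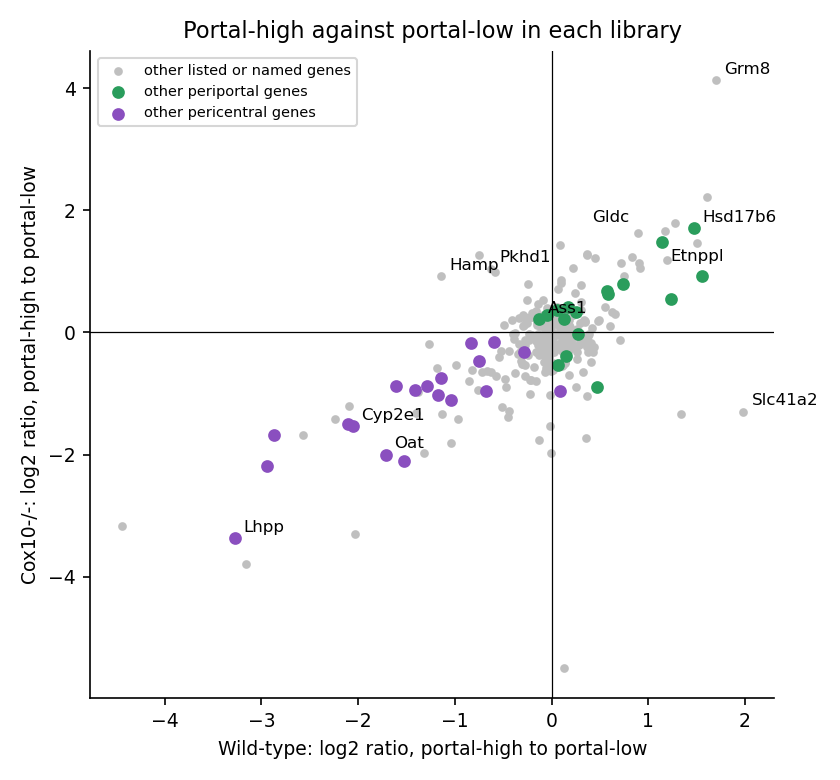
Log2 ratio of portal-high to portal-low nuclei in the wild-type (x axis) and Cox10-/- library (y axis) for most listed or named genes with at least 20 UMIs in both, rule genes left out. Other periportal genes lie mostly in the upper right, other pericentral genes in the lower left, and Hamp and Pkhd1 lie in the upper left with opposite signs in the 2 libraries.

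Hepcidin was 1 of 4 genes called in opposite directions. Hamp (chromosome 7, 30942368 to 30944032), which encodes the iron hormone hepcidin and is known as a gene of the middle of the lobule, was lower in wild-type portal-high nuclei and higher in Cox10-/- portal-high nuclei than at the other end of the score. From the lowest to the highest part of the score it stood at 330, 275, 198 and 149 CPM in wild-type nuclei, and the 95% Poisson interval of the last value was 135 to 165 CPM. In Cox10-/- nuclei it stood at 349, 553, 534 and 662 CPM, with an interval of 592 to 738 CPM for the last. The portal-low nuclei of the 2 livers thus held nearly the same level, and the portal-high nuclei differed 4.44-fold (3.82 to 5.15). Nuclei of other cell types held 49.9 CPM in wild-type and 217 CPM in Cox10-/- nuclei, below every hepatocyte group of the same library. The zonal ratio of Hamp was 4.18-fold larger in the Cox10-/- than in the wild-type library (3.32 to 5.27). The opposite directions held in all 18 alternatives run, of which the limits on UMIs per gene and the 2-fold rule could not change a ratio.

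The near-identical neighbour Hamp2 had 42.7 against 44.8 CPM in wild-type and 30.4 against 48.1 CPM in the Cox10-/- nuclei, neither of them called. The other listed genes of the middle of the lobule, Igfbp2 and Cyp8b1, were not called along the score, and Cyp8b1 had under 20 UMIs in the Cox10-/- nuclei. The opposite course was therefore seen for 1 of these 4 genes.

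The portal-high nuclei of the 2 livers were then compared with each other, 1 library against 1. Genotype cannot be told apart here from animal, preparation or the selection of nuclei. In the Cox10-/- nuclei, all measured immediate early genes and a part of the genes of glucose release, amino acid breakdown and drug metabolism were called higher. All mitochondrially encoded genes and a part of the genes of cholesterol synthesis and fatty acid oxidation were called lower. Of 8731 genes tested, 531 were called higher in Cox10-/- portal-high nuclei, 6.08%, and 326 lower, 3.73%. Leaving mitochondrially encoded genes out of the library size moved the median of all genes from 0.01 to -0.10 on the log2 scale and the calls to 414 higher and 448 lower, so the share of calls that were higher went from 62.0% to 48.0%. The sizes below are on the full library size, and none of the genes called and named below changed direction under the other. Without nuclei holding 2 or more UMIs of other cell types' markers, 298 of the 531 and 139 of the 326 were still called, and 528 and 325 kept their side of 1. In portal-low nuclei 620 of 8838 genes were called higher, 7.02%, and 291 lower, 3.29%. The 2 comparisons share the livers, so their values are given side by side and are not separate evidence.

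All 13 mitochondrially encoded messenger RNAs were lower in the Cox10-/- portal-high nuclei, with a median log2 ratio of -1.57, and 11 of 13 were called lower in portal-low nuclei, with a median of -1.07. mt-Co1, a core subunit of complex IV, stood at 18626 CPM in wild-type and 7143 CPM in Cox10-/- portal-high nuclei, and at 18787 and 10609 CPM in portal-low nuclei. Along the score the wild-type level was flat, and the Cox10-/- portal-high level lay 1.49-fold below portal-low (1.42 to 1.55). These transcripts lie outside the nucleus, and nuclei of other cell types in the same libraries differed the same way, with 24770 CPM of mt-Co1 in wild-type and 16486 CPM in Cox10-/- nuclei. The part of this library-wide difference in the result was not tested.

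Of 12 measured nuclear subunits of complex IV, 4 were called higher in Cox10-/- portal-high nuclei (Cox6a1, Cox7c, Cox8a and Ndufa4) and none lower, with a median log2 ratio of 0.43, and in portal-low nuclei 7 were called higher, with a median of 0.99. Cox7c stood at 65.0 CPM in wild-type and 124 CPM in Cox10-/- portal-high nuclei. All 4 were at or below their level in Cox10-/- nuclei of other cell types, where Cox7c had 147 CPM. The 10 of 35 cytoplasmic ribosomal protein genes called higher, with none lower and a median of 0.67, shared this feature without exception. Of 8 measured genes of heme synthesis, Cox10 among them, none was called, and Alas1, which starts the pathway, stood at 857 and 810 CPM.

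Genes of glucose release were higher where they were called. Of 12 gluconeogenesis genes besides Pck1, 5 were called higher in Cox10-/- portal-high nuclei and none lower, with a median log2 ratio of 0.56. G6pc, the catalytic subunit of glucose-6-phosphatase, stood at 900.4 CPM in wild-type and 3012 CPM in Cox10-/- portal-high nuclei, a ratio of 3.34 (3.13 to 3.57), and at 928 and 2469 CPM in portal-low nuclei. Slc37a4, its glucose-6-phosphate transporter, stood at 71.4 and 124 CPM. Got1 stood at 901 and 1746 CPM. Ppargc1a, a coactivator induced by glucagon and fasting, stood at 420 and 721 CPM, and Pck1, which chose the nuclei, at 2843 and 3392 CPM. Each of the 5 called higher was at least 2 times its level in Cox10-/- nuclei of other cell types.

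Sik1 and Nr4a1, which cAMP induces, and Igfbp1, which insulin represses, were called higher as well. Sik1 had 33.3 CPM in wild-type and 115 CPM in Cox10-/- portal-high nuclei, Nr4a1 10.2 and 72.9 CPM, and Igfbp1 75.6 and 196 CPM. The list of 13 glucagon and insulin genes had 4 called higher and 2 lower, with a median log2 ratio of -0.04. The lower ones were Pde4d, a cAMP phosphodiesterase, at 591 and 348 CPM, and Prkar1a, a regulatory subunit of protein kinase A, at 32.9 and 10.1 CPM, the last from 5 UMIs.

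In amino acid catabolism 9 of 32 enzymes were called higher and 2 lower in Cox10-/- portal-high nuclei, with a median log2 ratio of 0.21. In portal-low nuclei 2 were called higher and 4 lower. Tdo2, the first enzyme of tryptophan breakdown, stood at 1497 CPM in wild-type and 2945 CPM in Cox10-/- portal-high nuclei, and at 1211 and 1715 CPM in portal-low nuclei. Tat, of tyrosine breakdown, stood at 1818 and 3328 CPM in portal-high and 1746 and 2586 CPM in portal-low nuclei. Gldc stood at 239 and 521 CPM in portal-high nuclei, and its portal-low levels of 129 and 167 CPM were not called. Cth, of cysteine synthesis, stood at 431 and 855 CPM. Amdhd1 and Haao were the ones called lower, Amdhd1 at 272 and 132 CPM. All 9 called higher were at least 2 times their level in Cox10-/- nuclei of other cell types.

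In the urea cycle the calls between the livers fell on carriers and not on enzymes. Of 11 genes 3 were called higher in Cox10-/- portal-high nuclei, all of them transporters, and none lower. Slc25a15, the mitochondrial ornithine carrier, stood at 133 CPM in wild-type and 616 CPM in Cox10-/- portal-high nuclei, a ratio of 4.63 (3.96 to 5.41), and at 130 and 524 CPM in portal-low nuclei. Slc25a22, a mitochondrial glutamate carrier, stood at 77.5 and 162 CPM, and Slc38a4, an amino acid transporter of the cell surface, at 1377 and 2370 CPM. Ass1, at 1449 and 2123 CPM, was not called, with a ratio of 1.46 (1.37 to 1.57).

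Among both portal and central genes, more were called higher than lower in the Cox10-/- portal-high nuclei. Of 20 other periportal genes, 5 were called higher (Etnppl, G6pc, Mfsd2a and Tat among them) and Ctsc lower, with a median log2 ratio of 0.28. Etnppl stood 4.73-fold higher (4.10 to 5.46), at 745 against 158 CPM. Of 20 pericentral genes measured 10 were called higher and none lower, with a median of 0.71, but 7 of the 10 were at or below their level in Cox10-/- nuclei of other cell types. Ahr, at 31.0 and 117 CPM, and Por, the reductase that serves cytochromes P450, at 678 and 1037 CPM, were at least 2 times that level.

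Glycolysis and lipid synthesis genes were called in both directions, with 4 of 17 called higher and 5 lower and a median log2 ratio of 0.39. The lower ones included Pklr, the liver pyruvate kinase, at 168 CPM in wild-type and 52.7 CPM in Cox10-/- portal-high nuclei. Mlxipl (ChREBP), the glucose-sensing factor that drives Pklr, stood at 722 and 456 CPM, and Acacb, whose product restrains fatty acid entry into mitochondria, at 268 and 85.1 CPM. The higher ones included Acly, at 229 and 557 CPM, and Srebf1, a factor for fatty acid synthesis, at 89.2 and 190 CPM.

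Fatty acid oxidation genes were lower where they were called. Of 20 measured, 4 were called lower and none higher, with a median log2 ratio of -0.33. Acsl1, which activates fatty acids, stood at 1497 CPM in wild-type and 678 CPM in Cox10-/- portal-high nuclei, and at 1501 and 724 CPM in portal-low nuclei. Hadha, of the mitochondrial trifunctional protein, stood at 148 and 89.1 CPM, and Cyp4a10, a target of PPAR alpha, at 68.8 and 12.2 CPM. Cyp4a14 had 47 UMIs in wild-type and 0 in Cox10-/- nuclei, at least 2.92-fold lower against a floor of 3 counts over the group. Cpt1a, the gate of mitochondrial oxidation, stood at 555 and 429 CPM and was not called.

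In portal-high nuclei 7 of 20 measured genes of cholesterol synthesis were called lower and none higher, with a median log2 ratio of -0.68, and 19 of the 20 were below 1. In portal-low nuclei 5 of 20 were called lower and 3 lay above 1, with a median of -0.81, or -0.70 with the 1 gene at 0 UMIs set at its bound. Fdft1, the squalene synthase, stood at 101 CPM in wild-type and 14.2 CPM in Cox10-/- portal-high nuclei, 7.12-fold lower (3.41 to 17.9), and at 110 and 50.6 CPM in portal-low nuclei. Msmo1, a sterol oxidase, stood at 118 and 26.3 CPM, and Fdps at 79.3 and 18.2 CPM. Within the Cox10-/- library Fdft1 and Msmo1 were also called lower in portal-high than in portal-low nuclei, and Insig1, a sterol-regulated brake on the pathway, was called higher, at 377 against 215 CPM. In the wild-type library none of 21 genes of the list differed along the score by the rule for calls.

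**Figure D4:**
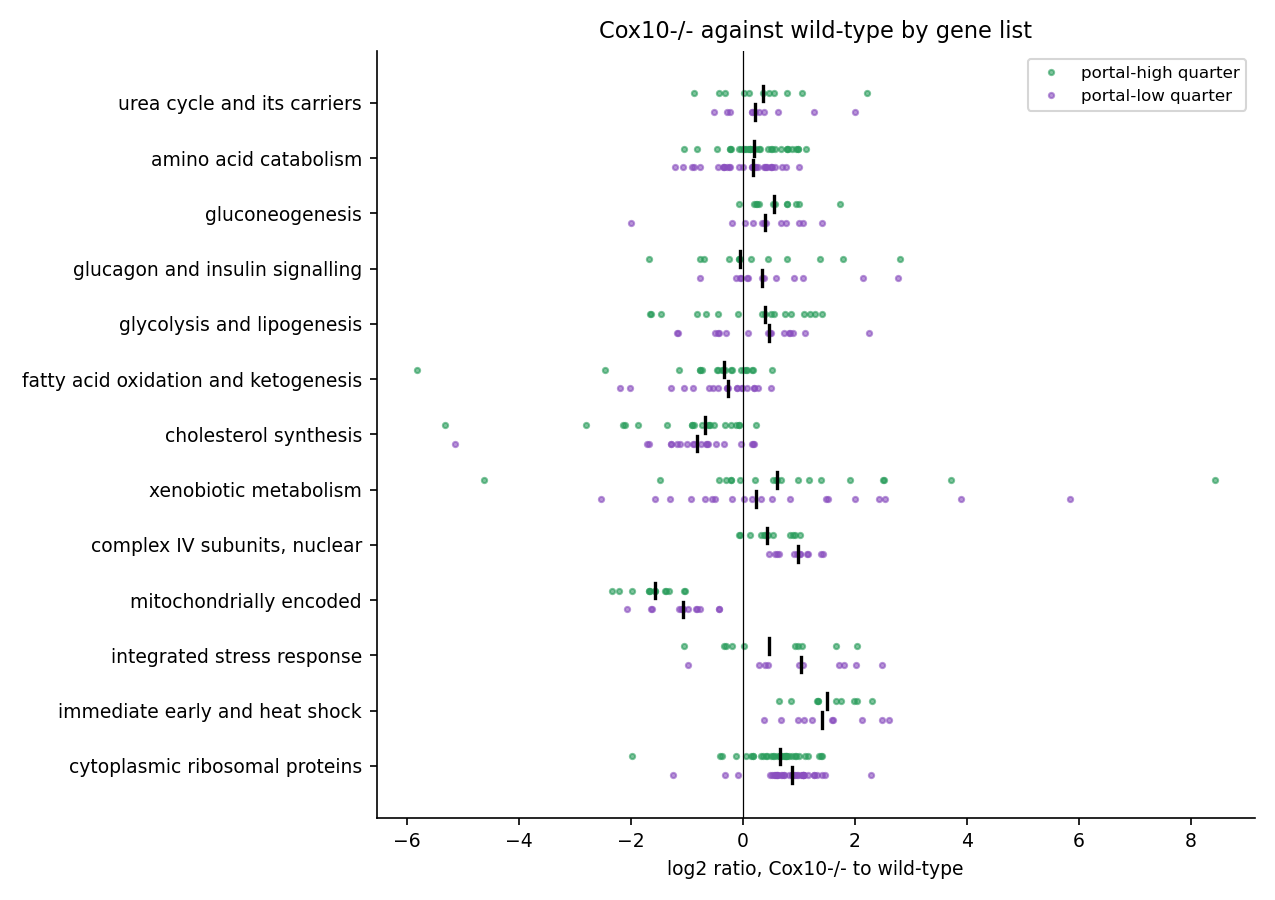
Log2 ratio of Cox10-/- to wild-type nuclei for the measured members of 13 gene lists (each point 1 gene, black ticks the medians) in portal-high and portal-low nuclei; genes with 0 UMIs in one sum are drawn at a fitted value that depends on the added 0.5 UMI. All mitochondrially encoded genes lie below 0 at both ends of the score, immediate early genes lie above it, and the median of cholesterol synthesis lies at -0.68 in portal-high nuclei.

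Of 20 measured drug metabolism genes 10 were called higher in Cox10-/- portal-high nuclei and 1 lower (Ces1f), with a median log2 ratio of 0.60. Of the 10, 6 were at least 2 times their level in Cox10-/- nuclei of other cell types, and Cyp1a2, Cyp2a5, Cyp3a11 and Gstm1 were at or below it. Cyp2b10, the classic target of CAR, had 0 UMIs in wild-type portal-high nuclei and 54 in the Cox10-/- nuclei (109 CPM), at least 96.5-fold higher against a floor of 3 counts over the group. Within the Cox10-/- library it was 3.09-fold higher in portal-high than in portal-low nuclei (1.69 to 6.02), with 54 against 14 UMIs, and nuclei of other cell types held 8.30 CPM. Its course along the score was thus opposite to that of the other cytochromes of the list that were called in the Cox10-/- nuclei. Fmo5, a flavin monooxygenase, stood at 664 and 3804 CPM, 5.73-fold higher (5.36 to 6.11). Cyp3a11, the main target of PXR, stood at 33.3 and 442 CPM, but its level in Cox10-/- nuclei of other cell types was 660 CPM, above that of the portal-high nuclei. Nr1i3 itself stood at 98.6 and 95.2 CPM and was not called.

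Of 10 measured immediate early and heat shock genes all 10 were called higher, with a median log2 ratio of 1.503, and 9 of 10 in portal-low nuclei, with a median of 1.41. Fos stood at 13.2 CPM in wild-type and 66.8 CPM in Cox10-/- portal-high nuclei, Jun at 239 and 608 CPM, and Egr1 at 277 and 691 CPM. The integrated stress response is a programme switched on by mitochondrial faults among others, and of its 10 measured genes 4 were called higher and none lower, with a median of 0.47. They were Atf3, at 24.6 and 101 CPM, Cebpb, at 131 and 413 CPM, Gdf15, at 35.9 and 74.9 CPM, and Cth. The response's secreted hormone Fgf21 had 8 UMIs in wild-type and 0 in Cox10-/- nuclei, and 13 of the 23 genes, Asns, Phgdh and Psat1 among them, had under 20 UMIs. Of 8 measured p53 and arrest genes 4 were called higher, led by Btg2 at 150 and 597 CPM, and Cdkn1a had 2 and 3 UMIs, too few to test. Some genes stand in more than 1 list, so the counts of lists are not separate. Btg2 and Atf3 were also counted among the immediate early genes, and Cth in amino acid catabolism. Ahr, Cyp1a2, Cyp2a5, Gstm1 and Por were counted among both the pericentral and the drug metabolism genes.

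Plasma proteins and growth hormone targets were mixed. Of 23 plasma protein genes 5 were called higher and 3 lower, among them Hpx, the heme scavenger, at 415 and 1126 CPM, and Fgb, a fibrinogen chain, at 1176 and 757 CPM. Only Ahsg of the 5 was at least 2 times its level in Cox10-/- nuclei of other cell types. Of 13 growth hormone and male-biased genes 5 were called lower and 3 higher. Socs2, a feedback inhibitor induced by growth hormone through STAT5, had 47 UMIs in wild-type and 0 in Cox10-/- nuclei, at least 2.92-fold lower, and the steroid enzyme Hsd3b5 had 62 and 0, at least 3.86-fold lower. Cyp4a12a stood at 110 and 20.3 CPM, while the pheromone carrier Mup20 stood at 1015 and 2374 CPM. Of 14 factors of hepatocyte identity, 12 were not called, Hnf4a among them at 326 and 342 CPM. Onecut1, which is also a biliary fate factor, was lower, at 278 and 40.5 CPM, 6.87-fold (4.42 to 11.3).

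By the ranking rule the genes highest in Cox10-/- relative to wild-type portal-high nuclei were Cyp2b10, Osbpl3, Gstp3, Saa1, Sdk1, Cyp3a11, Ntrk2, Scara5, Grip1, Fgfr1, Rims2 and Nrg1. Of these 12, 6 were at least 2 times their level in Cox10-/- nuclei of other cell types, and 5 were at or below it. Among the 6 was Scara5, a ferritin receptor, at 32.1 CPM in wild-type and 363 CPM in Cox10-/- portal-high nuclei, 11.3-fold higher (8.67 to 14.8), with 23.5 CPM in Cox10-/- nuclei of other cell types. Fgfr1, a fibroblast growth factor receptor, stood at 16.6 and 170 CPM and was also called higher in portal-high than portal-low nuclei of both livers, at 16.6 against 6.75 CPM and 170 against 48.1 CPM. Grip1, a synaptic scaffold, stood at 6.05 and 93.2 CPM, Sdk1, an adhesion molecule, at 3.78 and 85.1 CPM, and Ntrk2, a neurotrophin receptor, at 2.27 and 50.6 CPM. Saa1, an acute phase protein, stood at 6.05 and 119 CPM, with 124 CPM in nuclei of other cell types, and the glutathione transferase Gstp3 at 6.05 and 119 CPM, with 115 CPM there.

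The genes lowest in Cox10-/- portal-high nuclei were Sntg1, Prex2, Cyp17a1, Hacl1, Slco1a1, Sult2a8, Clec2h, Onecut1, Fras1, Slc25a30, Mup21 and Dlgap1. Cyp17a1, of steroid synthesis, had 117 UMIs in wild-type and 0 in Cox10-/- nuclei, at least 7.28-fold lower, and was 3.46-fold higher in portal-high than portal-low wild-type nuclei (2.36 to 5.17). Hacl1, of peroxisomal alpha-oxidation, stood at 701 and 109 CPM, a 6.41-fold gap (4.89 to 8.57), and at 560 and 119 CPM in portal-low nuclei. Slco1a1, a male-biased organic anion transporter, stood at 529 and 79.0 CPM, and the bile acid sulfotransferase Sult2a8 at 453 and 66.8 CPM. Dlgap1, a synaptic scaffold that was also called higher at the portal-high end of the wild-type, stood at 335 and 66.8 CPM. Sntg1 had 413 UMIs in wild-type portal-high nuclei and 1 in Cox10-/- portal-high nuclei, 56 in Cox10-/- portal-low nuclei, and 1883 CPM in Cox10-/- nuclei of other cell types. Sntg1 and Prex2, which had 121 and 0 UMIs and 601 CPM in those other nuclei, were thus the members of this group that stood there far above their hepatocyte levels.

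**Figure D5:**
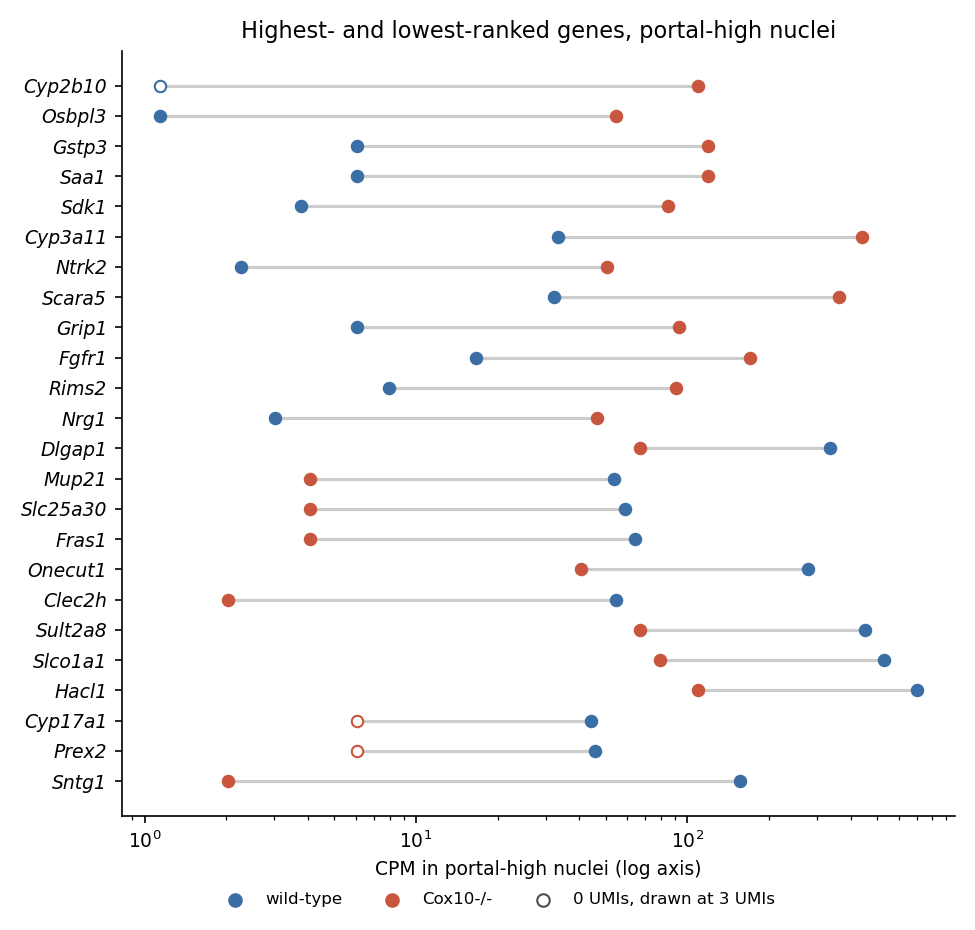
Levels (CPM, log axis) in wild-type and Cox10-/- portal-high nuclei of the 12 genes ranked highest and the 12 ranked lowest by the end of the interval nearest to 1; open circles are sums with 0 UMIs, drawn at 3 UMIs. Cyp2b10 is at 0 UMIs in the wild-type, and Prex2 and Cyp17a1 are at 0 UMIs in the Cox10-/- nuclei.

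Members of the large gene families among these, such as Cyp2a5, Cyp2c29, Cyp3a11, Gstp3, Saa1, Mup20 and Mup21, have near-identical copies whose reads the counting may split or drop, so their values are uncertain. Cycling was not measurable in these nuclei, since 14 of 16 cell cycle genes had under 20 UMIs over the portal-high sums. Mki67 had 1 UMI in wild-type and 2 in Cox10-/- portal-high nuclei, and Top2a had 0 in both, which allows up to 3 UMIs in either sum.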

How the data were processed

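The authors deposited raw UMI counts of 32286 genes in 10615 nuclei, without normalization, made with Cell Ranger 7.0 on mm10 per the submitters' processing notes. Its nuclei hold 601 to 3999 genes each, so the authors had filtered them. How introns and strand were treated is not given in the sources used here. Coordinates come from GENCODE vM21, in which 31424 of the symbols were found.

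The members, gene lists and comparisons were chosen with earlier results of these data known. UMIs were summed per library and end of the score. Ratios of CPM carry exact conditional binomial 95% intervals, levels Poisson intervals, and shares Clopper-Pearson intervals. Log2 ratios add 0.5 UMI, scaled to library size. A ratio of zonal ratios has an interval from the Poisson variance of the 4 logged sums. A sum of 0 was given a floor of 3 counts. With 1 library per genotype no test was run. No doublet caller was run, and leaving out nuclei with markers of other cell types or the 5% with most UMIs stood in for it.

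The ranking took the 12 genes with the highest and the 12 with the lowest interval end nearest to 1, for the zonal contrast in the weaker library, with at least 20 CPM in the higher group, without sex chromosome, mitochondrial or predicted genes. Up to 4 members of each of 34 lists, members needed to describe a pathway, and genes with opposite zonal calls were also named. Values of a few genes are not reported here. The comparison with nuclei of other cell types at 2 times their level was chosen after values were seen. On simulated counts with Poisson error only, the call rule found 67.35% of genes planted 2-fold higher and 46.81% planted 2-fold lower between the portal-high sums. It called 52 of 8532 unplanted genes there. Between the portal-low sums it found 68.09% and 27.66%. The simulation holds no variation between nuclei or animals, so it gives no rate of false calls for these data.

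Besides the values given, 14 alternatives were fixed at the start and 4 were added after seeing the data. Python 3.11.15, numpy 2.4.6, scipy 1.17.1, pandas 2.3.3, matplotlib 3.10.9 and R 4.3.3 were used, with edgeR 4.0.16 (TMM factors) and DESeq2 1.42.0 (size factors) for scaling alone.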

Additional observations from a re-analysis of the deposited data

Results flagged for a closer look

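Of the genes with a called zonal ratio in both livers, 4 had opposite directions in the 2 livers. The difference between the livers was not tested in any of them, since each liver is 1 library. Hamp had the largest counts: its log2 ratio of portal-high to portal-low nuclei was -1.14 in wild-type and 0.92 in Cox10-/- nuclei, a difference of 2.06 (95% counting interval 1.73 to 2.40). It was opposite in every alternative that recomputes ratios, and called in both livers in all alternatives except the 2-fold rule.

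Slc41a2, a magnesium transporter, had log2 ratios of 1.98 in the wild-type (46 against 12 UMIs) and -1.29 in the Cox10-/- library (18 against 36 UMIs), a difference of -3.29. Gpat3, which makes lysophosphatidic acid for lipid synthesis, had 1.34 (27 against 11 UMIs) and -1.34 (16 against 33 UMIs), a difference of -2.69. Both kept opposite signs in every alternative that recomputes ratios, although many of those left 1 or both ratios uncalled. Pkhd1, a gene of bile duct cells, had -0.63 and 1.04, a difference of 1.67. Its wild-type ratio was 0.02 with nuclei thinned to 2000 UMIs and 0.18 without nuclei holding markers of other cell types, so there it was no longer opposite. Pkhd1 is itself among those markers, so the latter setting removes nuclei by their Pkhd1 UMIs and cannot check its ratio.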

How the results depend on the processing

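Of 4185 values of named or listed genes under the alternatives that recompute ratios, 3628 moved by less than their counting interval, 538 moved by more without a change of side, and 19 changed side. Counts of calls depended on depth, the number of nuclei and the rule for calls. Genes lower in wild-type portal-high nuclei (228) numbered 141 with at most 10% mitochondrially encoded UMIs, 133 with Cps1 at 1% or more, 149 thinned to 2000 UMIs, 143 without nuclei holding 2 or more UMIs of other cell types' markers, 145 without the 10% richest in them, 113 with at least 100 UMIs per gene and 118 at 2-fold. Genes higher there (133) numbered 79 and 42 under the last pair. In Cox10-/- nuclei, genes higher (94) numbered 49 at Cps1 of 1%, 58 thinned, 61 with a thinned score, 41 without marker-holding nuclei, 54 at 100 UMIs and 31 at 2-fold. Genes lower (132) numbered 59, 67, 56, 56 and 54 under the same settings without the thinned score, and 201 with at least 1 UMI per gene. Between livers, portal-high genes higher (531) numbered 346 in the top 10%, 320 at Cps1 of 1% and 238 at 2-fold. Those lower (326) numbered 183, 188 and 129, with 167 thinned and 178 without marker-holding nuclei. Portal-low genes higher (620) numbered 382, 283 and 300, with 384 at 4000 UMIs per nucleus or more, 393 without marker-holding nuclei and 371 at 100 UMIs per gene. Those lower (291) numbered 158, 180 and 119, with 193 thinned and 162 without marker-holding nuclei. Without mitochondrially encoded genes in the library size the portal-low calls were 518 and 381. Genes with opposite zonal calls in the 2 livers (4), counted over all genes and so not always from those 4, numbered 2 with the top 10%, a score without Pck1, 100 UMIs per gene, or without the 10% richest in markers, 1 with wider ends of the score, Cps1 at 1%, 4000 UMIs, thinning or no marker-holding nuclei, and 0 at 2-fold.

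Changes of side, as log2 ratios, fell mostly on genes of other cell types. In wild-type nuclei Cd5l became 0.78 with low mitochondrial share and 0.82 at Cps1 of 1%. Pkhd1 became 0.0183 when thinned. Without marker-holding nuclei Pkhd1 became 0.18, Bmp6 0.0592, Ecm1 0.0634, F8 0.18 and Ptprb 0.91, and without the richest 10% Bmp6 became 0.0683 and Ptprb 0.97. In Cox10-/- nuclei Dcn became 0.10 and Trib3 0.67 at Cps1 of 1%. Without marker-holding nuclei Dcn became 0.11, Me1 0.10, Ptprb 1.45 and Trp53inp1 0.13, and without the richest 10% Ank3 became 0.0221 and Ptprb 0.10. Between the livers Reln became -0.14 without marker-holding nuclei. Under the settings that remove nuclei by markers, all of these genes but Me1 and Trp53inp1 are themselves among the markers used. Those settings act on their counts directly, so they cannot check the ratios of these markers. The cause of the changes was not tested further. TMM and DESeq2 scaling left all 279 gene values within their counting interval. No paired analysis was possible because each genotype has 1 library and no test was run.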

Other observations

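A row named Dendra2, the name of a photoconvertible fluorescent protein, is in the count table although the labels name no reporter. It stood at 208 CPM in wild-type and 352 CPM in Cox10-/- portal-high nuclei, a ratio of 1.70 (1.42 to 2.01), and at 207 and 380 CPM in portal-low nuclei. Nuclei of other cell types held 212 and 275 CPM. The interval of the ratio of portal-high to portal-low nuclei held 1 in both libraries, at 0.891 to 1.13 in wild-type and 0.742 to 1.16 in Cox10-/- nuclei.

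Trib3, a stress-induced pseudokinase, was called lower in portal-high than in portal-low Cox10-/- nuclei, with 6 against 17 UMIs, and Atf3 was called lower there in both livers, at 24.6 against 48.3 CPM in the wild-type and 101 against 273 CPM in the Cox10-/- nuclei. Trp53inp1, a p53 target, stood at 94.8 against 147 CPM and at 326 against 511 CPM. Ccnd1 had 4 UMIs in wild-type and 11 in Cox10-/- portal-high nuclei, and in portal-low nuclei it was called higher in the Cox10-/- library, with 10 and 13 UMIs at 3.55 and 32.9 CPM.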
